A study of Mus musculus with 6 samples.

Results

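The genes described here drive the passage from G2 through mitosis to cell division: cyclins and kinases, spindle checkpoint and kinetochore proteins, kinesins, anaphase and cytokinesis proteins, and condensin subunits. The list was drawn up by gene name and function and uses no measured value in its rule, but it was made with earlier results of these data known. All 45 genes on the list were among the 17025 genes of the deposited table. RNA-seq had been done on integrin α6-positive epidermal progenitor cells, isolated by flow cytometry from the epidermis of mice at postnatal day 0. There were 3 libraries labelled control, of genotype K14Cre,Ash2lF/+ (Cre and 1 floxed Ash2l allele), and 3 labelled cKO, of genotype K14Cre,Ash2lF/F (Cre and 2 floxed alleles). No treatment was given. Both groups carried K14Cre, in which the keratin 14 promoter drives the recombinase in basal keratinocytes and so not in melanocytes or fibroblasts that may be sorted with them. The labels name no animals, and a p-value here covers only the spread among 3 libraries of a label, which may be technical.

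Dividing basal keratinocytes supply the epidermis with new cells, and differentiating cells above them leave the cell cycle. Cyclin B with CDK1 starts mitosis. The spindle checkpoint then holds the cell until every kinetochore is attached, after which CDC20 and the anaphase-promoting complex (APC/C) release the sister chromatids. Most of these genes are transcribed late in the cell cycle. In cells at rest the DREAM complex, built from RBL2 or RBL1, an E2F protein and the MuvB core with LIN9, LIN37, LIN52 and LIN54, represses them through the cell cycle genes homology region (CHR), whose core is TTTGAA or TTCGAA. In dividing cells MuvB joins B-MYB and FOXM1 and activates them. The factor NF-Y binds CCAAT boxes nearby. ASH2L is a core subunit of the complexes that methylate histone H3 at lysine 4.

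The promoters of the genes share these letters, which is why 4 of them are shown. RefSeq promoter windows of 300 bases (250 before and 50 after the annotated start; build GRCm38.p6) were matched by symbol for 38 of the 45 genes, in 41 windows. TTTGAA or TTCGAA, on either strand, was found in 33 of the 41 windows (80.5%), against 19.2% of all 32851 windows. CCAAT, on either strand, was found in 31 of 41 (75.6%), against 37.4% of all. Both were found in 29 of 41 (70.7%), against 7.52% of all. A pair of CCAAT in the same orientation 30 to 35 bases apart, a spacing noticed in the sequences themselves, was found in 8 of 41 (19.5%), against 1.19% of all. As the spacing was chosen from sequences in which it was then counted, that share is no separate test. These matches are descriptions of the sequence, and binding was not measured. The 250 bases before the start of Cdk1 (chr10:69352913-69353162), Ccnb2 (chr9:70421555-70421804), Mki67 (chr7:135716380-135716629) and Spc25 (chr2:69206214-69206463) are printed below 5′ to 3′ along the gene, all on the minus strand of GRCm38.p6. Capitals mark CCAAT or its reverse complement ATTGG, and TTTGAA. The first 3 are the mitotic kinase, its cyclin partner and the proliferation marker, and the last is the only gene of the list that passed the test below.

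Cdk1: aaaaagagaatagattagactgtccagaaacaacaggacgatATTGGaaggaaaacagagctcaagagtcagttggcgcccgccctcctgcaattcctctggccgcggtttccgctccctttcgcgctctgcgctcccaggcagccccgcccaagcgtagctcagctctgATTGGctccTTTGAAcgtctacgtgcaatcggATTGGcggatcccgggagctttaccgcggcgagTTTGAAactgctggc
Ccnb2: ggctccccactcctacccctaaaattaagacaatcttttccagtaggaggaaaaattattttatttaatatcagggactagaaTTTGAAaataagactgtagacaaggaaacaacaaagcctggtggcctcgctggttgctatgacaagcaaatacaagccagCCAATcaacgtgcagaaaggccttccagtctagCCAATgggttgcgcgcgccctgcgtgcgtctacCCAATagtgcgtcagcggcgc
Mki67: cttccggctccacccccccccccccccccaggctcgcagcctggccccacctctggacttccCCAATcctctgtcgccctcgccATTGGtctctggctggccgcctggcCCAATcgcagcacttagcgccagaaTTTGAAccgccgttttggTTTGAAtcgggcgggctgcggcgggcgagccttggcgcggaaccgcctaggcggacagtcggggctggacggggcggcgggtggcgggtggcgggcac
Spc25: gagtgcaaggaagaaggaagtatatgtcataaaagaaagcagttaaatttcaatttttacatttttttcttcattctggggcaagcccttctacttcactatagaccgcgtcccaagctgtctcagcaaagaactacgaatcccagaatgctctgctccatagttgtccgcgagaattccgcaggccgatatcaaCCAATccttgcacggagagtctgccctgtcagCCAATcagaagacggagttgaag

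Positions were counted from the first transcribed base as 0. Cdk1 had ATTGG at -80 and -48, 32 bases apart, and TTTGAA at -71 and -15. In Ccnb2 3 CCAAT stood at -87, -54 and -21, each 33 bases from the next, and TTTGAA at -167 and at 4, the latter past the printed part. Mki67 had TTTGAA at -116 and -98. In Spc25 the CCAAT at -55 and -23 were 32 bases apart, and its TTTGAA lay at 24, also past the printed part. Files and promoter table are of different builds, GRCm39 and GRCm38.p6, and were joined by gene symbol alone.

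Library totals of 31578875 to 36027550 fragments fitted the FPKM values as whole numbers. They were inferred from those values and not given with them. Ash2l, the targeted gene, went against the labels. Its level was 12.4, 18.1 and 15.9 FPKM (fragments scaled to gene length and to the library's total) with the label control 1, 2 and 3, and 30.9, 29.5 and 22.9 FPKM with the label cKO 1, 2 and 3 (log2 difference 0.81, SE 0.19, limma adjusted p = 0.0240). Leaving out control 1, control 3, cKO 1 or cKO 2 ended that call (adjusted p 0.0564 to 0.0828). A gene total does not show whether a floxed exon was lost, and every direction here is drawn from labels that this gene went against. The deposited columns have names beginning A-C for the control label and A-W for the cKO label. The labels do not say what C and W stand for, and no library was moved. The sorted cells carried basal markers, and other markers moved with the labels: the summed level of 9 melanocyte markers was 2869 to 3285 FPKM with the control label and 174 to 373 FPKM with the cKO label, all 9 called lower. Summed over 7 spinous markers it was 4591 to 6443 and 34644 to 67973 FPKM, with 4 called higher, and over 7 basal markers 4878 to 8503 and 8002 to 10445 FPKM, with 1 called higher and 1 lower. Over 7 fibroblast markers, none of them called, it was 95.1 to 344 and 149 to 447 FPKM, with 149 FPKM in the library labelled cKO 3. Endothelial (at most 6.99 FPKM) and leukocyte markers (at most 2.55 FPKM) were low, with Cdh5, Ptprc and Cd3e at 0 in at least 1 library. The sum over 6 erythroid markers was 3.29, 13.1 and 48.8 FPKM with the label control 1, 2 and 3. With the label cKO 1, 2 and 3 it was 45.6, 23.0 and 7.43 FPKM, and none of the 3 tested was called. Fibroblast, endothelial and erythroid sums were lowest in control 1 and cKO 3. The library labelled control 1 also stood apart in Y-linked RNA, with Ddx3y listed at 0 against 9.58 to 27.3 FPKM in the other 5. The part of these differences in the values below was not tested.

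Of the 45 mitosis genes, 1 was lower in the libraries labelled cKO, the kinetochore gene Spc25, and 0 were higher. Among the 11603 genes tested (mean over the libraries 1 FPKM or more), 13.6% were called lower, 5.87% higher and 19.5% either way (limma on log2(FPKM + 1), Benjamini-Hochberg adjusted p under 0.05). All 45 mitosis genes passed that filter. At an unadjusted limma p under 0.05 there were 8 of 45, all lower. Among all 11603 genes 34.7% reached it in either direction, 2855 lower and 1175 higher. The median log2 difference over the 45, cKO minus control, was -0.23, beside -0.17 over all genes tested. Differences ran from -0.79 (Anln) to 0.51 (Kif20a), with 31 genes below 0 and 14 above. Most of all 11603 genes also lay below 0, 7417 against 4186 above, so a sign below 0 was common. Scaling the libraries by the median of ratios moved the median of all genes to 0.03 and that of the mitosis genes to -0.04, with 23 below 0 and 22 above. It also moved the calls over all genes from 681 higher and 1576 lower to 1045 and 997. How many of the 45 genes lay below 0 thus depended on the scaling.

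**Figure D1:**
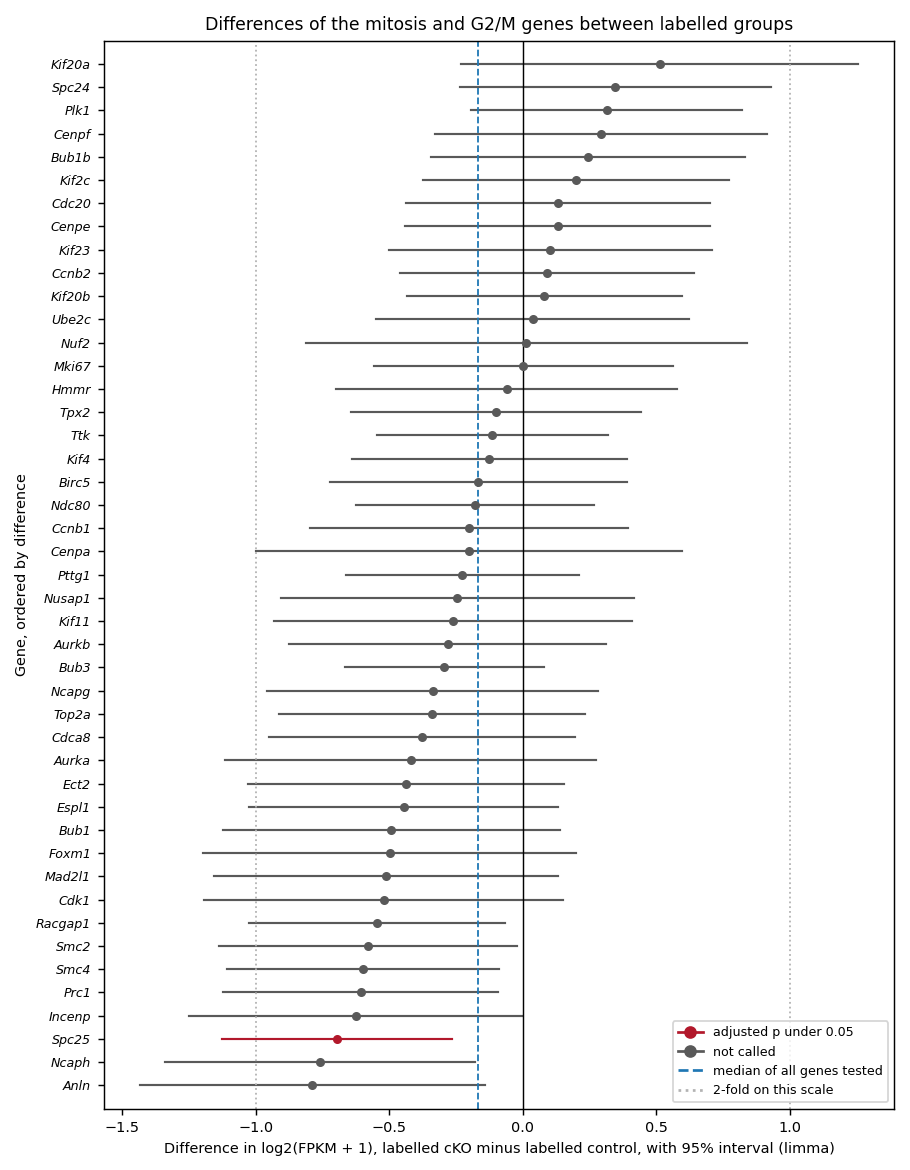
Difference in log2(FPKM + 1) between libraries labelled cKO and control (horizontal axis) for each of the 45 mitosis and G2/M genes (vertical axis), with 95% intervals from limma. Spc25 is the only called gene, and the dashed line at -0.17 is the median of all genes tested.

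The intervals say how large a difference remained possible. For 37 of the 45 genes the 95% interval of the log2 difference included 0, against 7573 of all 11603 genes tested. For 29 of 45 it lay wholly between -1 and 1, that is, within a 2-fold change on this scale. The same held for 6735 of the 11603. Mki67, whose product coats mitotic chromosomes and marks cycling cells, had an interval of -0.56 to 0.56 around a difference of 0.00.

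Spread within the control label was wide for these genes. In 37 of the 45 genes (82.2%) the range over the 3 libraries labelled control, in log2(FPKM + 1), was larger than the difference between the group means. The same held for 56.6% of all genes tested. The median range over those libraries was 0.60 for the mitosis genes and 0.44 for all genes, and the median size of the group difference was 0.29 and 0.36. Nuf2 spread widest, 3.32-fold between the libraries labelled control 1 and control 3, and Kif20a followed at 2.68-fold between control 1 and control 2.

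**Figure D2:**
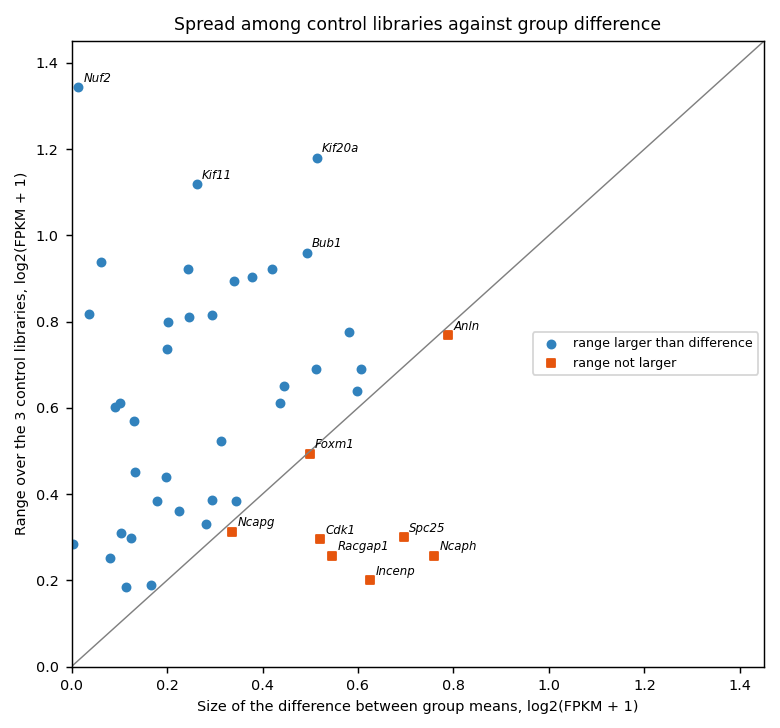
Range over the 3 libraries labelled control (vertical axis) against the size of the difference between group means (horizontal axis), both in log2(FPKM + 1), 1 point for each of the 45 genes. The 37 blue points above the line have a range larger than the difference. The orange squares, Spc25 and Ncaph among them, do not.

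The spread was shared over the list. The library labelled control 1 held the highest value of 20 genes, control 3 of 12 and cKO 2 of 10, and the library labelled cKO 3 of 0. The lowest value fell in cKO 3 for 28 genes and in control 2 for 9. This was not particular to the list as far as levels go. Over all genes tested the mean log2(FPKM + 1) was also lowest in cKO 3, at 3.36 against 3.56 to 3.71 in the other libraries. The share of all genes lowest in cKO 3 was not counted. Summed over the 45 genes the level was 536, 400.0 and 495 FPKM with the label control 1, 2 and 3, and 419, 475 and 302 FPKM with the label cKO 1, 2 and 3. Those labelled cKO 1 and 2 lay within the range of the controls and cKO 3 below it. After scaling by the median of ratios the sums were 496, 371 and 443 against 423, 483 and 363, cKO 3 was lowest for 16 genes and control 2 for 17. The spinous markers, Krt1 and Krt10 among them, summed highest in cKO 3 (67973 FPKM), and their part in its low values was not tested. In these bulk samples fewer dividing cells and less RNA per dividing cell cannot be told apart.

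**Figure D3:**
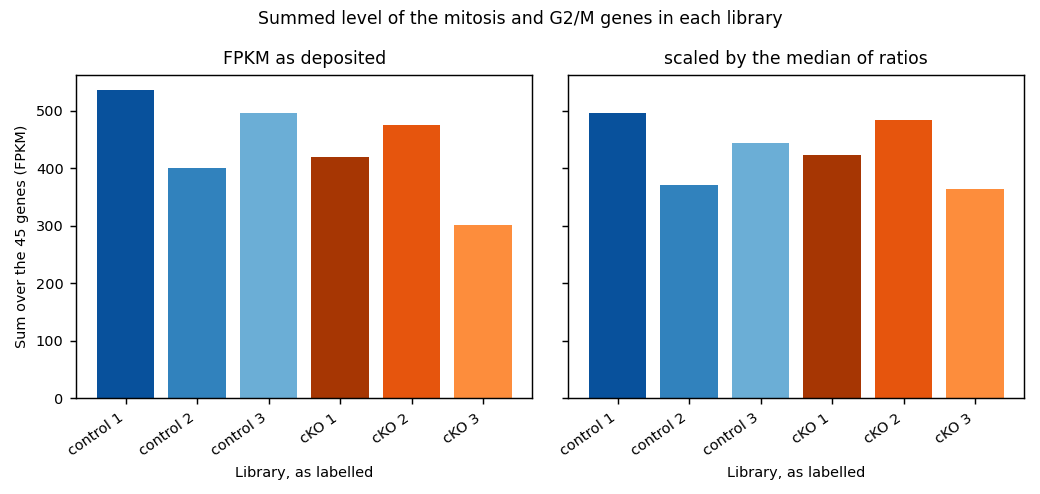
Sum over the 45 genes in each library (bars), as deposited (left) and divided by the median of ratios (right), in FPKM. The library labelled cKO 3 stands lowest on the left at 302 FPKM, and on the right it stands beside control 2 at 363 and 371.

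**Figure D4:**
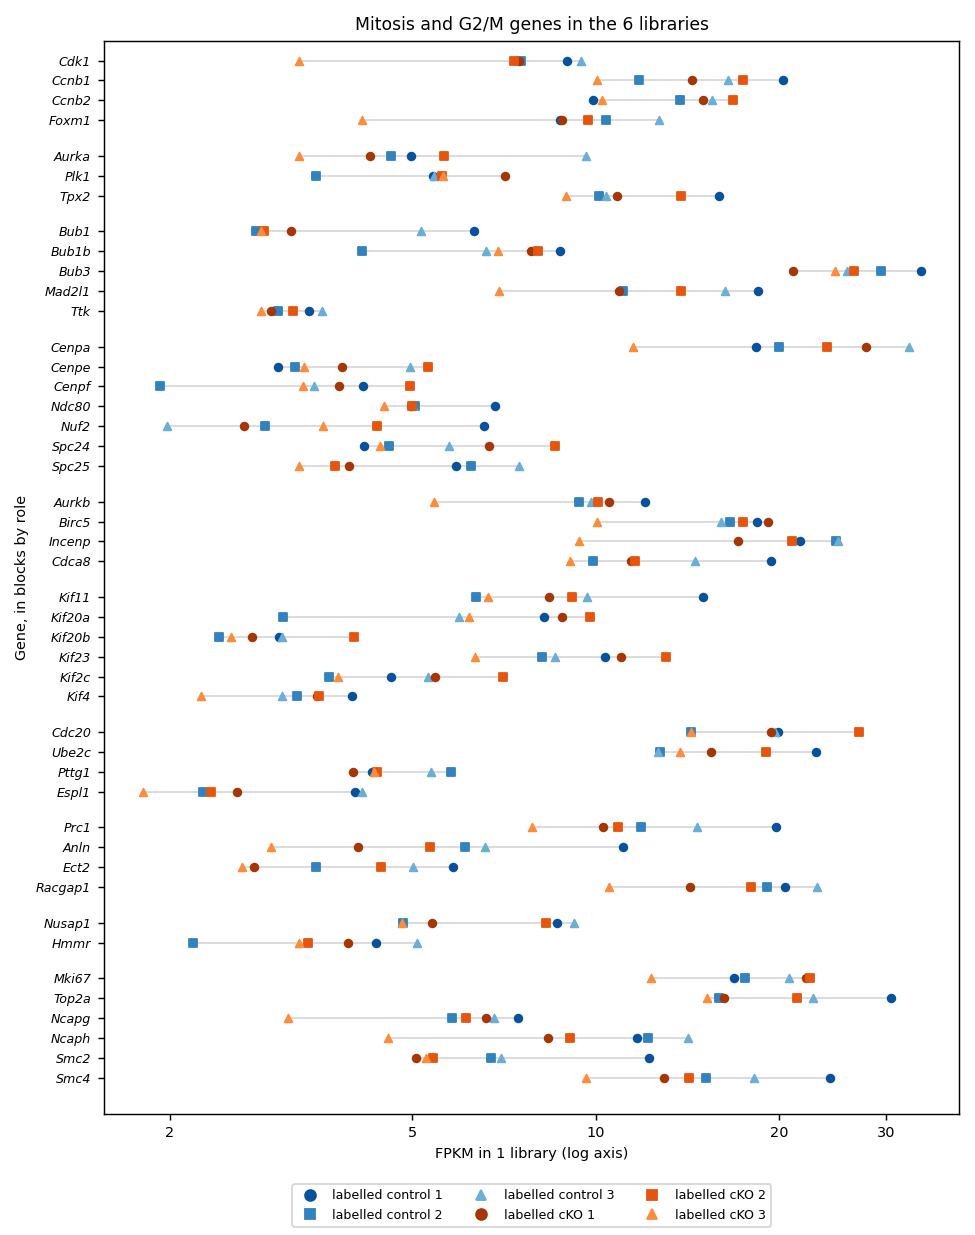
FPKM of each gene (rows, in blocks by role) in the 6 libraries (points; log axis). Colours separate the labelled groups and shapes the replicates. The groups overlap in 34 of the 45 rows.

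Groups did not overlap for 11 genes. In 10 of 45 (22.2%) every library labelled cKO lay below every one labelled control, against 30.9% of all genes tested. In 1, Plk1, all lay above, against 12% of all genes. Levels were modest: the mean over the 6 libraries ran from 2.86 FPKM (Espl1) to 27.0 FPKM (Bub3), with a median over the 45 of 7.05 FPKM against 10.9 FPKM over all genes tested. After Bub3 came Cenpa (22.4), Top2a (20.4), Incenp (19.8), Cdc20 (19.1) and Mki67 (18.7), in FPKM. In that order all 44 neighbouring pairs had overlapping ranges over the libraries. Each value rested on at least 127 fragments, and counting error was not set against the spread between libraries.

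Cyclins, CDK1 and FOXM1 set the entry into mitosis, and 0 of these 4 genes passed the test. Cdk1, the kinase itself, stood at 8.98, 7.53 and 9.47 FPKM with the label control 1, 2 and 3, and at 7.495, 7.35 and 3.25 FPKM with the label cKO 1, 2 and 3 (the same order is kept below). The groups touched without overlap, and cKO 3 alone was far below the rest; the log2 difference was -0.52 (SE 0.29, adjusted p = 0.241). Its partner cyclin gene Ccnb2 was at 9.90, 13.8 and 15.6 against 15.0, 16.9 and 10.3 FPKM, fully overlapping (0.09, SE 0.24). Ccnb1 (-0.20) and Foxm1 (-0.50), the transcription factor of late cell cycle genes, also overlapped.

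Among the kinases that build the spindle, Aurka had 4.97, 4.61 and 9.64 FPKM with the control label and 4.26, 5.64 and 3.26 FPKM with the cKO label (-0.42, SE 0.30, adjusted p = 0.355). Control 3 stood alone at the top. Plk1, the polo-like kinase of centrosome maturation and mitotic exit, was at 5.41, 3.47 and 5.43 against 7.09, 5.599 and 5.62 FPKM (0.31, SE 0.22, adjusted p = 0.344). All 3 values labelled cKO were above the controls, though the nearest were 5.599 and 5.43 FPKM. Tpx2, which activates Aurora A on spindle microtubules, overlapped (-0.10).

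Spindle assembly checkpoint genes gave 0 calls in 5. Mad2l1, part of the inhibitor of CDC20, was at 18.5, 11.1 and 16.3 against 10.9, 13.8 and 6.95 FPKM (-0.51, SE 0.28, adjusted p = 0.231), with overlap. The BUBR1 gene Bub1b, another part of that inhibitor, was at 8.73, 4.14 and 6.62 against 7.83, 8.05 and 6.92 FPKM (0.24, SE 0.25), the cKO values all inside the control range. Bub3, the most abundant gene of the list, ranged from 21.1 to 34.2 FPKM (-0.29), and Bub1 (-0.49) and the kinase gene Ttk (-0.12) overlapped as well.

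Kinetochore genes held the only call. SPC25 and SPC24 form one end of the NDC80 complex, whose other end, NDC80 and NUF2, grips microtubules. Spc25 was at 5.89, 6.24 and 7.48 FPKM with the control label and 3.93, 3.74 and 3.26 FPKM with the cKO label, with clear space between the groups. Its means were 6.54 ± 0.836 and 3.65 ± 0.345 FPKM (SD, n = 3 each), a log2 difference of -0.70 (SE 0.19, 95% interval -1.13 to -0.26, limma adjusted p = 0.0374). The call was lost without any 1 of the 6 libraries (adjusted p 0.0508 to 0.120), while the difference stayed between -0.76 and -0.61. With the median of ratios as scaling it did not hold either (-0.51, adjusted p = 0.0775).

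None of its 3 partners in the complex was called. Spc24, the direct partner, was at 4.17, 4.58 and 5.75 against 6.69, 8.57 and 4.42 FPKM (0.35, SE 0.25, adjusted p = 0.365), with cKO 1 and 2 above all controls and cKO 3 among them. Ndc80 lay lower without overlap, at 5.02 to 6.85 and 4.49 to 5.005 FPKM (-0.18, adjusted p = 0.546), and Nuf2 at 1.98 to 6.56 and 2.65 to 4.37 FPKM (0.01, adjusted p = 0.984). Whether the difference of Spc25 was unlike that of its partners was not tested. The centromeric histone gene Cenpa ranged from 11.5 to 32.7 FPKM (-0.20), and the large kinetochore proteins encoded by Cenpe (0.13) and Cenpf (0.29) were above 0 without passing the test.

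In the chromosomal passenger complex, which corrects faulty attachments and then moves to the midzone, all 4 differences were below 0 and 0 passed. Incenp, its scaffold, was at 21.7, 24.8 and 25.03 against 17.1, 21.0 and 9.41 FPKM (-0.63, SE 0.27, adjusted p = 0.143). The nearest values of the groups were 21.0 and 21.7 FPKM. Birc5, which encodes survivin, was at 18.4, 16.6 and 16.1 against 19.2, 17.5 and 10.1 FPKM (-0.17, SE 0.24), with cKO 1 the highest of all and cKO 3 the lowest. The kinase gene Aurkb (-0.28) and the borealin gene Cdca8 (-0.38) overlapped. Under scaling by the median of ratios Birc5 turned to 0.04.

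The kinesins, motors of spindle and midzone, gave 0 calls in 6, and 4 differences lay above 0. Kif20a, the motor that carries the passenger complex to the midzone, was at 8.21, 3.07 and 5.97 against 8.80, 9.78 and 6.20 FPKM (0.51, SE 0.32, adjusted p = 0.292). Control 2 was low and control 1 stood among the values labelled cKO. Kif20a overlaps Brd8 and Cdc23 in the RefSeq annotation of GRCm38.p6, and how reads of overlapping genes were counted is not given in the sources used here. Kif11, which pushes the spindle poles apart, was at 15.0, 6.37 and 9.68 against 8.40, 9.14 and 6.66 FPKM (-0.26, SE 0.29), every cKO value inside the control range. Kif2c (0.20), Kif23 (0.10), Kif20b (0.08) and Kif4 (-0.12) overlapped too.

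Anaphase genes gave 0 calls in 4. Cdc20, the APC/C activator that the checkpoint restrains, was at 19.97, 14.3 and 19.7 against 19.4, 27.1 and 14.3 FPKM (0.13, SE 0.25), the highest value being that of cKO 2. Espl1, which encodes separase, the protease that cuts cohesin, was at 4.03, 2.27 and 4.14 against 2.58, 2.34 and 1.80 FPKM (-0.45, SE 0.25, adjusted p = 0.244). Control 2 lay among the cKO values. The ubiquitin-conjugating enzyme gene Ube2c (0.04) and the securin gene Pttg1 (-0.23) overlapped.

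Cytokinesis genes stood lowest by role, with a median of -0.58, and all 4 stayed below 0 under scaling by the median of ratios (median -0.37), yet 0 passed. Anln, an actin-binding scaffold of the cleavage furrow, was at 11.1, 6.11 and 6.57 against 4.07, 5.35 and 2.93 FPKM (-0.79, SE 0.28, adjusted p = 0.0857), without overlap. Prc1, the bundler of midzone microtubules, was also without overlap (11.9 to 19.8 against 7.86 to 10.9 FPKM; -0.61, adjusted p = 0.0936), as was Racgap1 (19.1 to 23.1 against 10.5 to 17.98 FPKM; -0.55, adjusted p = 0.103). Ect2, the exchange factor that activates RhoA at the furrow, was at 5.84, 3.47 and 5.01 against 2.75, 4.44 and 2.63 FPKM (-0.44, SE 0.26), with overlap. Among spindle-associated genes, Nusap1 was at 8.64, 4.83 and 9.22 against 5.39, 8.28 and 4.81 FPKM (-0.25) and the hyaluronan-mediated motility receptor gene Hmmr at 4.36, 2.18 and 5.10 against 3.92, 3.38 and 3.25 FPKM (-0.06). Control 2 was the low control in both.

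Condensin compacts mitotic chromosomes, and its 4 genes on the list were all below 0 with none called. Ncaph, the kleisin that closes the condensin ring, was at 11.7, 12.2 and 14.2 against 8.37, 9.07 and 4.56 FPKM (-0.76, SE 0.25, adjusted p = 0.0698), without overlap. The ring's ATPase genes Smc2 (6.72 to 12.2 against 5.07 to 5.42 FPKM; -0.58, adjusted p = 0.131) and Smc4 (15.2 to 24.2 against 9.65 to 14.3 FPKM; -0.60, adjusted p = 0.0950) did not overlap either, and Ncapg (-0.34) did. Mki67 was at 16.9, 17.6 and 20.8 against 22.2, 22.5 and 12.3 FPKM, with cKO 1 and 2 above every control and cKO 3 below every one. Top2a, the topoisomerase that untangles sister chromatids, ranged from 15.98 to 30.6 and from 15.3 to 21.4 FPKM (-0.34).

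In a fit without control 1 and cKO 3, 1 mitosis gene was called higher and 2 lower, against 10.1% and 20.6% of all genes. Kif20a was the one higher (0.95, adjusted p = 0.0462), and Spc25 and Ncaph (-0.54, adjusted p = 0.0320) were lower. The median over the 45 genes was 0.01 there. Those 4 libraries were picked after seeing the data, which can itself narrow the spread. Over the 45 genes control 2 and control 3 were not the closest controls. The sums were 536, 400.0 and 495 FPKM with the label control 1, 2 and 3.

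Other genes of the same processes, 160 tested of 166, gave 13 calls (8.13%), all lower, which is below the 13.6% of all genes called lower. Their median was -0.30. With libraries scaled by the median of ratios the calls were 3 lower and 1 higher, and the median -0.11. Neither other G2/M regulators (20 tested, median -0.35) nor cohesin and other condensin genes (14 tested, median -0.21) gave a call; the closest were Wee1, the kinase that holds CDK1 inactive (-1.15, adjusted p = 0.0528), and the cohesin regulator gene Pds5b (-0.69, adjusted p = 0.0579). Of 30 other kinetochore genes 2 were lower, Cenpn (-1.14, adjusted p = 0.0263), which reads the centromeric nucleosome, and Dsn1 (-0.97, adjusted p = 0.0379) of the MIS12 complex. Of 27 other spindle and cytokinesis genes Kif3b, a kinesin of cilia and transport, was lower (-0.82, adjusted p = 0.0201), and of 16 APC/C subunits Anapc4 (-0.51, adjusted p = 0.0436). The 13 calls became 2 to 8 when 1 library was left out. Cenpn kept its call without control 1, cKO 2 or cKO 3, and Kif3b without cKO 2 or cKO 3. Dsn1 and Anapc4 lost theirs without any 1 of the 6 libraries (adjusted p up to 0.108), and the losses of Cenpn and Kif3b reached adjusted p = 0.0836.

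Of 15 DREAM and MuvB genes, whose products act on the promoter letters shown above, 3 were lower (20%) and none higher, against 13.6% and 5.87% of all genes, with a median of -0.26. Rbl2, the p130 pocket protein of resting cells, was at 26.5, 17.4 and 19.7 against 13.0, 12.7 and 9.25 FPKM (-0.80, SE 0.21, adjusted p = 0.0353). Lin52, which links the pocket protein to MuvB, was at 4.84, 5.64 and 4.95 against 3.33, 1.87 and 1.62 FPKM (-0.94, adjusted p = 0.0333). The CHR-binding subunit gene Lin54 was at 7.60, 8.46 and 9.65 against 5.52, 5.02 and 2.72 FPKM (-0.86, adjusted p = 0.0496). Of all 16 listed DREAM and MuvB genes 5 lay lower without overlap (31.25%) and 1, Tfdp1, higher. Among all genes tested the shares were 30.9% and 12%. Mybl1, 1 of the 5, was below the filter and not tested. The 3 called genes were also among the 5. Each lost its call under scaling by the median of ratios; Rbl2 and Lin54 also lost it without any 1 library (adjusted p up to 0.145), and Lin52 without any but cKO 1 (up to 0.106).

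Earlier in the cycle, 4 of 32 G1 and S phase genes (12.5%) were lower and none higher, a share near the 13.6% of all genes, with a median of -0.47. They were the replication clamp gene Pcna (98.2 to 104 against 61.0 to 72.2 FPKM; -0.61, adjusted p = 0.0122), the repressor gene E2f7 (-0.96, adjusted p = 0.0354), the helicase gene Gins2 (-0.96, adjusted p = 0.0378) and the geminin gene Gmnn (-0.67, adjusted p = 0.0470). Pcna kept its call without each library in turn and lost it when libraries were scaled by the median of ratios (-0.39, adjusted p = 0.0541), also in limma-voom on recovered fragments under that scaling (adjusted p = 0.0766). E2f7 kept its call only without control 1, Gins2 without cKO 1 or cKO 3, and Gmnn under none of the 6 omissions (adjusted p up to 0.147). Of 6 CDK inhibitor genes 2 were lower (33.3%, against 13.6% of all genes). Cdkn2d was at 11.6, 13.6 and 10.999 against 5.65, 4.30 and 5.29 FPKM (-1.10, SE 0.18, adjusted p = 0.00664) and kept its call under all 16 alternatives run. Cdkn2c was at 7.08, 7.47 and 8.84 against 4.34, 4.99 and 2.33 FPKM (-0.89, adjusted p = 0.0474), and lost its call without any 1 library (adjusted p up to 0.140). Both inhibit the cyclin D kinases of G1.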

How the data were processed

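The authors deposited 1 table of FPKM values, per the file headers. Per the submitters' processing notes the tools were fastp, HISAT2 and HTSeq and the build GRCm39. Which annotation and filter were used, and whether strand was, is not given in the sources used here. FPKM values fitted whole fragments for 17023 of 17025 genes (relative tolerance 1e-09). Fragment numbers of a gene are the smallest whole solution, so the true ones may be a multiple. The test was limma 3.58.1 (R 4.3.3) on log2(FPKM + 1) for the 11603 genes whose mean reached 1 FPKM. The model held the group alone, its variance prior followed the mean, and a Benjamini-Hochberg adjusted p under 0.05 was called. The fit was also run on simulated data, drawn for each gene separately with no shift shared by a whole library. That run therefore says nothing on such shifts. Groups and replicate numbers came from the labels.

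The genes and lists were chosen with earlier results of these data known. Values in every library are given for called genes and for the largest and smallest difference of each role. Of each other list up to 4 called genes were named, or the closest to a call where there was none. Alternatives were a pseudocount of 0.1, no filter, a mean of 5 FPKM, median of ratios, 2 variance settings, a replicate block and each library left out. The fit on 4 libraries and limma-voom on the recovered fragments were chosen after seeing the data. Of the genes, 8 overlap another protein-coding gene in RefSeq GRCm38.p6 (Nusap1, Aurka, Cdc20, Ncapg, Foxm1, Prc1, Anln and Kif20a), and Ccnb1, Ccnb2 and Kif4 have a named pseudogene, so reads shared with those are uncertain. Figures were drawn with matplotlib 3.10.9.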

Additional observations from a re-analysis of the deposited data

How the results depend on the processing

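Of the 45 mitosis genes, 0 were called higher under every alternative but the 4 libraries (1). The 1 lower became 0 with no filter, under the median of ratios, with limma-voom on the recovered fragments under both scalings and without each library in turn (0 to 0), and 2 on the 4 libraries. Calls over all genes (2257) were 3572 on the 4 libraries and 1103 to 2166 with 1 library left out. Calls among the other genes of these processes (13) were 5 with no filter, 7 at a mean of 5 FPKM, 4 under the median of ratios, 5 with limma-voom under that scaling, 28 on the 4 libraries and 2 to 8 with 1 library left out. The same replicate number in both groups marks no shared animal or batch in the labels, and deviations of same-numbered libraries correlated at -0.31, 0.08 and -0.26. With the replicate number as a block, 0 mitosis genes were lower, 1325 of all genes and 2 of the other genes were called, and the median over the mitosis genes was -0.23. The median was between -0.35 and -0.09 with 1 library left out. Signs turned for 20 of the 45 genes in at least 1 alternative, none of them called there (lowest adjusted p 0.278) and all within 0.34 of 0 in the 6 libraries. Under the median of ratios these were Ccnb1 0.0095, Tpx2 0.11, Ttk 0.057, Cenpa 0.012, Ndc80 0.011, Birc5 0.044, Kif4 0.043, Hmmr 0.12. With limma-voom under that scaling they were Ccnb1 0.022, Tpx2 0.13, Ttk 0.073, Cenpa 0.021, Ndc80 0.018, Birc5 0.059, Kif4 0.068, Hmmr 0.17, and under library totals Mki67 -0.0035. On the 4 libraries they were Ccnb1 0.17, Tpx2 0.23, Cenpa 0.012, Aurkb 0.091, Birc5 0.16, Kif11 0.14, Kif4 0.12, Hmmr 0.075, Ncapg 0.013. With a pseudocount of 0.1 Mki67 was at -0.00035. Leaving out 1 library gave Ccnb1 -0.40 to 0.0012, Ccnb2 -0.083 to 0.29, Tpx2 -0.25 to 0.097, Bub1b -0.0049 to 0.46, Cenpa -0.44 to 0.16, Cenpe -0.024 to 0.31, Nuf2 -0.27 to 0.40, Birc5 -0.33 to 0.10, Kif11 -0.54 to 0.022, Kif20b -0.076 to 0.18, Kif23 -0.092 to 0.38, Kif4 -0.21 to 0.031, Cdc20 -0.089 to 0.35, Ube2c -0.10 to 0.31, Hmmr -0.34 to 0.13, Mki67 -0.14 to 0.27. The cause of these shifts was not tested. Each value rested on at least 127 fragments, and the part of counting error in the spread was not tested.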
